A study of Mus musculus with 23 samples.

Results

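Long noncoding RNAs of cardiac macrophages were followed from the uninjured heart into the infarct. The set holds the 93 genes, of 54532 in the count table, that are annotated as lincRNA (long intergenic noncoding RNA), lie on chromosomes 1 to 19 and had a mean count of at least 50 over all 23 libraries. The table lists 5559 lincRNA genes, 4915 of them on these chromosomes, and 2304 of those 4915 had no count in any library. Macrophages were sorted on magnetic columns from hearts of C57BL/6 mice as Ly6G-negative, CD11b-positive cells, and their poly(A) RNA was sequenced. S7fl/fl mice carried loxP-flanked alleles of Smad7, which encodes an inhibitor of TGF-beta signalling. MyS7KO mice carried the same alleles and LyzM-Cre, a recombinase driven from the lysozyme M gene, which is active in macrophages and in other myeloid cells such as neutrophils. The 6 groups were uninjured control hearts, called baseline here (S7fl/fl n = 3, MyS7KO n = 3), hearts after 3 days of coronary occlusion (n = 5 and n = 5) and hearts after 7 days (n = 3 and n = 4). The comparisons ask how these RNAs change over the course of infarction and whether loss of Smad7 in myeloid cells alters that course.

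A long noncoding RNA is transcribed and usually spliced like a messenger RNA but has no annotated protein product. Some act in the nucleus as scaffolds of nuclear bodies or on neighbouring genes, some bind proteins or microRNAs in the cytoplasm, and some are mainly precursors of microRNAs or small nucleolar RNAs. In myeloid cells the better known ones are Morrbid, which holds down the pro-apoptotic gene Bcl2l11, and the host transcript of miR-155, a microRNA induced by inflammatory signals.

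All 93 were counted in every library and passed the low-count filter, which kept 16545 genes. Mean counts ran from 50.2 (1110002J07Rik) to 26749.8 (Malat1) with a median of 113, and 9 were at least 1000. In 60 the mean was at least 50 in every group, and in 33 it was lower in at least 1 group. Among the 33 are Gm13479, which fell furthest at day 3, and AU022793, Gm13391 and A930007I19Rik, which rose. Each met the limit only through the groups where it was high, so its presence in the set is no evidence of its change. Nearest the limit were C030034L19Rik (50.3), Gm48604 (50.3) and 1110002J07Rik (50.2) inside and 2310040G24Rik (48.3), Gm26518 (48.3) and Gm43660 (47.1) outside. Most have only a catalogue name, 43 as predicted genes (Gm) and 20 as RIKEN clones. Together they took 0.241 to 0.413% of all counts, and Malat1 made up 36.0 to 55.1% of that. In 26 an exon overlaps an exon of a gene on the opposite strand, and because the labels do not state whether strand was kept, the reads of such pairs cannot be told apart. Among those described below this touches Malat1, Meg3, H19, Pvt1, Lncpint, Gm14005, Gm26809, Gm45752, Snhg6, 4833407H14Rik, Gm16907 and Gm48065.

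Libraries held 15479402 to 23884938 counts. Smad7 read 53.1 to 61.2 CPM (counts scaled to a common library size with TMM factors) at baseline in S7fl/fl and 19.7 to 48.7 in MyS7KO, 30.4 to 42.0 and 10.5 to 19.9 at day 3, and 57.4 to 70.2 and 16.0 to 33.4 at day 7. The groups did not overlap at any of the 3 times, yet edgeR's test across all genes did not pass (adjusted p = 0.999, 0.11 and 0.0702), and the deleted stretch is not named in the labels. Macrophage markers (13 of 13 in the table) summed to 13118 to 28478 CPM. At day 7 the S7fl/fl libraries (25805 to 28478 CPM) lay above the MyS7KO libraries (17297 to 22251 CPM), while at baseline and day 3 the genotypes overlapped. By Xist and Y-linked genes all 4 MyS7KO libraries of day 7 were female and all 3 S7fl/fl libraries of day 7 were male, so sex and genotype cannot be told apart there. S7fl/fl day 3 replicate 4 and MyS7KO day 3 replicate 3 carried reads of both sexes (minor signal of 7.83 and 2.87%). Whether every library had its own heart is not given in the labels, and each p-value then covers sample-to-sample spread that may be technical. In bulk RNA fewer cells of a type and less RNA per cell cannot be told apart.

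Several of the 93 are known for short sequences that they carry. The microRNA hosts are shown by mature RNAs (RefSeq, GRCm38.p6) that lie within them, with the seed, bases 2 to 8, in capitals. Mir155hg (chr16:84703167-84715245, plus strand) holds miR-155, Mir142hg (chr11:87755577-87757270, plus strand) holds miR-142, and Mir17hg (chr14:115042879-115046727, plus strand) holds the miR-17-92 cluster. Within that cluster miR-17 and miR-20a share the seed AAAGUGC, and miR-19a and miR-19b share GUGCAAA. The libraries measured the host transcripts, not these small RNAs.
mmu-miR-155-5p: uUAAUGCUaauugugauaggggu
mmu-miR-142a-3p: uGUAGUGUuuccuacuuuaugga
mmu-miR-17-5p: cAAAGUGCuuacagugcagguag
mmu-miR-20a-5p: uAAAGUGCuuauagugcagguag
mmu-miR-18a-5p: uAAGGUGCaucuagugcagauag
mmu-miR-19a-3p: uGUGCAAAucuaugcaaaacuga
mmu-miR-19b-3p: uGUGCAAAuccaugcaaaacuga
mmu-miR-92a-3p: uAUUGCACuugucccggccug

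1700020I14Rik (chr2:119594297-119607502, plus strand) is the mouse Cyrano RNA, known for a site that pairs extensively with miR-7 and leads to the decay of that microRNA. Its longest transcript (8300 bases, GENCODE vM21, GRCm38) holds 2 matches to the miR-7 seed, both in the last of 3 exons. The match in chr2:119602134-119602161 is joined by a run of 13 bases that pair with bases 11 to 23 of miR-7, and the match in chr2:119599944-119599971 has no such run. Both are shown to set the extended site beside the plain one, with the seed and its matches in capitals.
mmu-miR-7a-5p: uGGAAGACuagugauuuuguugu
Cyrano, extended site: agaacaacaaaatcaccaatGTCTTCCa
Cyrano, seed match only: cttcaggttttttttttaatGTCTTCCa

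2900097C17Rik (chr2:156388065-156392979, minus strand, 1 exon) is the mouse Norad, an abundant cytoplasmic RNA known to bind Pumilio proteins through repeats of the form TGTANATA. On the sense strand this element stood 11 times in its 4915 bases. Neat1 came next among the 93 with 4 in 20771 bases, and 65 held none in their longest transcript. The stretch below is bases 1482 to 1631 of the transcript (chr2:156391349-156391498, minus strand), printed to show 2 of the elements, in capitals.
Norad stretch: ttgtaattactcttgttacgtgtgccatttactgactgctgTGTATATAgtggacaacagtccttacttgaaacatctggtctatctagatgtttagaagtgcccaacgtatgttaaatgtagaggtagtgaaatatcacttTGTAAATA

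Per length, in the authors' FPKM (fragments scaled to transcript length and library size), Malat1 had a mean level of 208 over the 23 libraries. Gm10076 stood above it at 323 FPKM, but it is a gene of 384 bases of which 99.7% matches the ribosomal protein gene Rpl41 at 99.5% identity, so its reads may come from either. Gm26917 followed at 51.5 FPKM, AW112010, an interferon-inducible RNA, at 28.7, Mir142hg at 28.3, Gm26532 at 27.3, Norad at 26.5, AU020206 at 25.3, AI504432 at 21.0 and Neat1 at 18.4. The median of the 93 was 2.30 FPKM, 16 reached 10 and 16 stayed under 1. Besides Gm10076, Gm36161, AC165953.2, Gm42047 and Norad share at least 50% of their longest transcript with another gene at 95% identity or more (Norad 51.6%, with Gm7292), and their counts are uncertain to that extent.

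**Figure D1:**
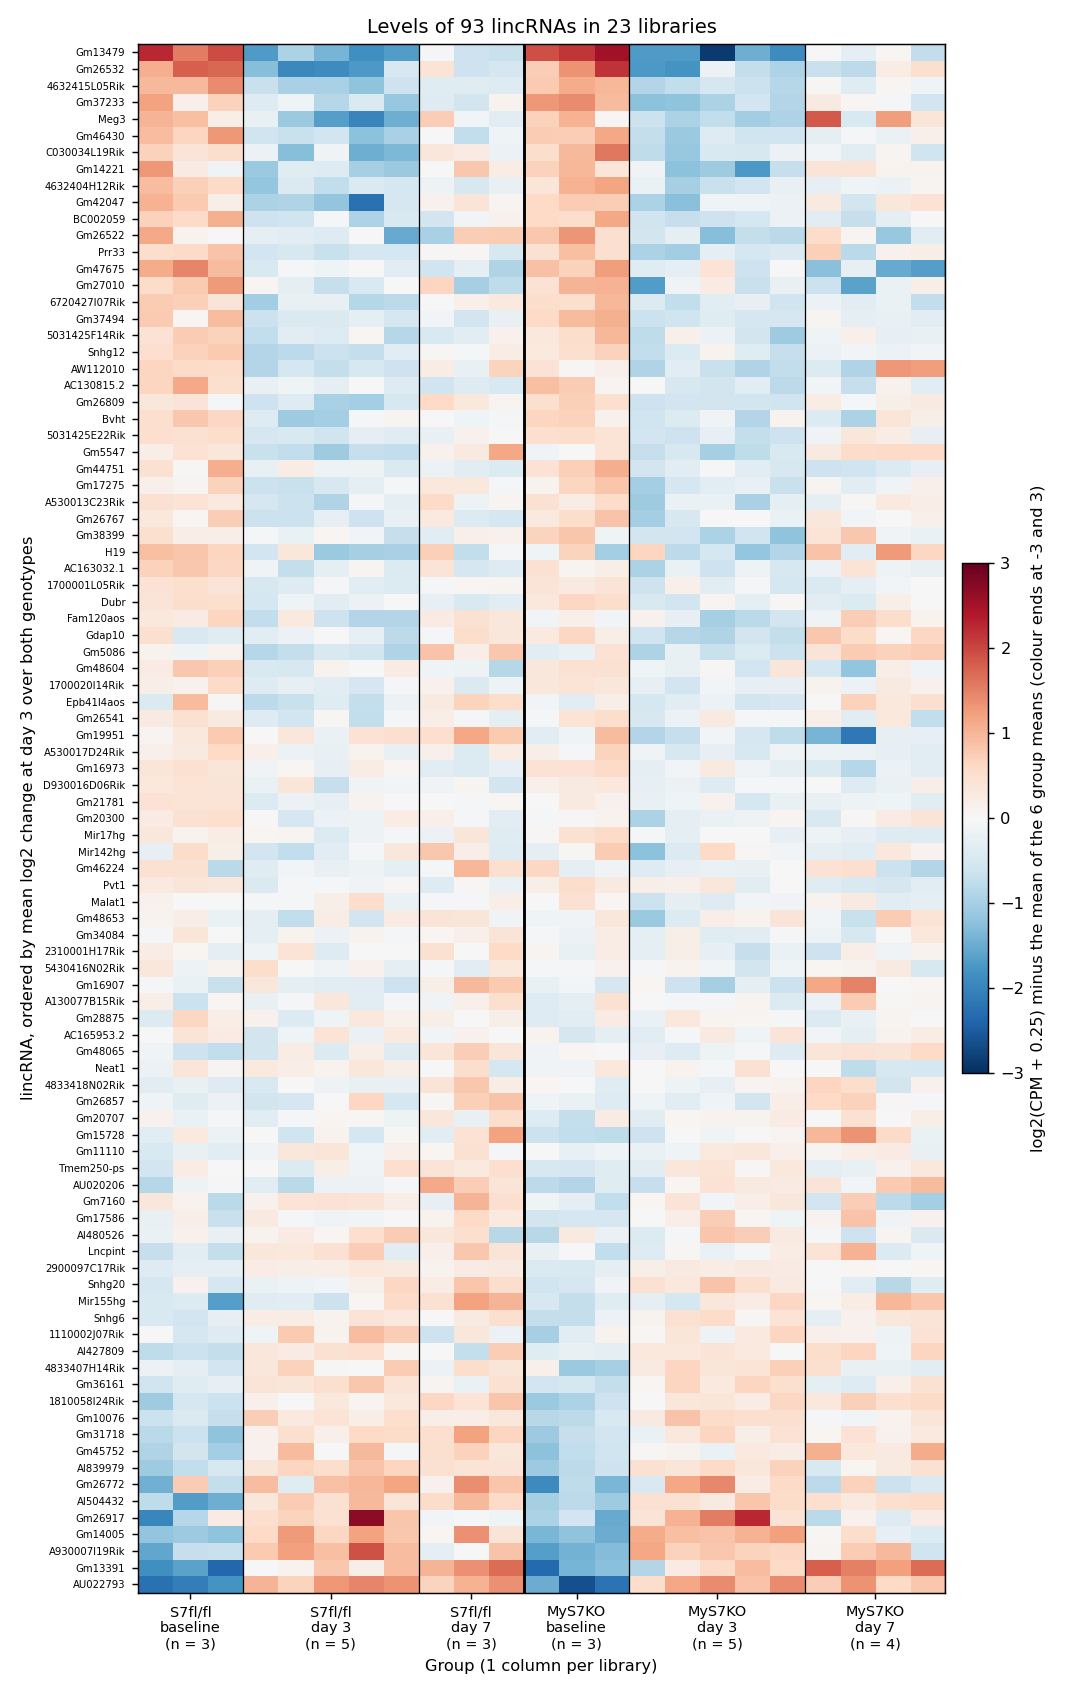
Levels of the 93 lincRNAs (1 row each) in the 23 libraries (1 column each, grouped by genotype and time), as log2(CPM + 0.25) minus the mean of the 6 group means of that gene. Rows are ordered by the mean log2 change at day 3, so that RNAs below their own mean at day 3 in both genotypes are at the top and those above it at the bottom.

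Between baseline and day 3 most of these RNAs changed, and more fell than rose, in both genotypes. In S7fl/fl 63 of 93 were called (67.7%; edgeR's quasi-likelihood test, Benjamini-Hochberg adjusted p under 0.05 over all genes tested), beside 64% of all 16545 genes. By direction 44 fell and 19 rose (20.4%, beside 29.9% of all genes). The 44 are 47.3% of the set, where 34.1% of all genes and 30.6% of the 10665 protein-coding genes that met the same limits of count and chromosome were called lower. In MyS7KO 63 were called as well (67.7%, beside 65.9% of all genes), 42 lower (45.2%, beside 35.2% of all genes and 32% of those coding genes) and 21 higher (22.6%, beside 30.7%). The median log2 change of the 93 was -0.40 in S7fl/fl and -0.36 in MyS7KO, against -0.06 and -0.10 over all genes and 0.12 and 0.11 over the coding genes. These shares describe the set and carry no test of their own.

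**Figure D2:**
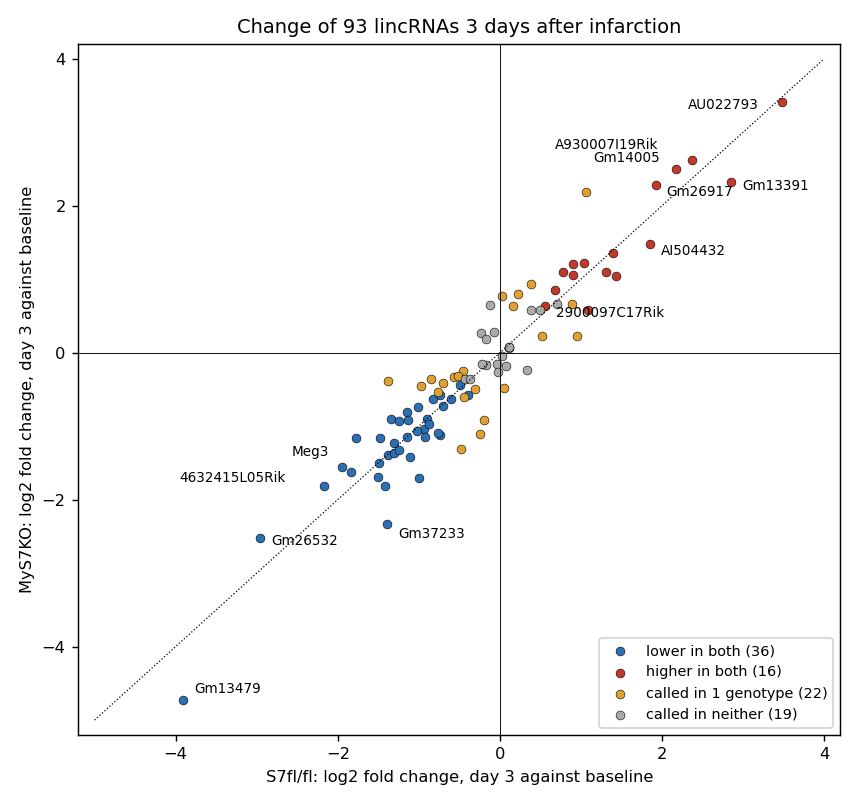
Log2 fold change at day 3 against baseline of the 93 lincRNAs in S7fl/fl (x axis) and MyS7KO (y axis), coloured by edgeR call, with the line of equality dotted. The 36 RNAs lower in both genotypes lie at the lower left with Gm13479 at the end, and the 16 higher in both lie at the upper right with AU022793 at the end.

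The genotypes share no library, so their calls can be set against each other. At day 3, 36 RNAs were lower in both (81.8% of the S7fl/fl list and 85.7% of the MyS7KO list), 16 were higher in both (84.2 and 76.2%), and 0 were called in opposite directions. Of all genes, 29.9% were lower and 26.3% higher in both. Over all genes the shares were 87.7 and 85% of the lower lists and 88 and 85.6% of the higher lists. Of the shared RNAs, 18 were at least 2-fold lower and 10 at least 2-fold higher in both genotypes. Shares over all genes are not given for these 2-fold counts, nor for the day 7 patterns of the 36 and the 16 described below. Such counts therefore describe the set alone and do not set it apart from other genes. The 36 had a median exon length of 3540 bases and the 16 one of 2098, against 2762 in the whole set.

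AU022793 (chr15:39962649-39967024, plus strand), an RNA of 3 exons with no known function, had the largest rise in S7fl/fl and in MyS7KO. It read 0.867, 1.02 and 1.28 CPM at baseline in S7fl/fl and 8.22 to 14.4 at day 3 (median 12.8). In MyS7KO it read 0.6, 0.892 and 1.65 CPM and then 7.4 to 14 (median 11.7). No day 3 library came near the baseline range. The rise was 11.1-fold in S7fl/fl (log2 3.48 ± 0.313 SE, edgeR adjusted p = 3.03e-09) and 10.6-fold in MyS7KO (log2 3.41 ± 0.315, edgeR adjusted p = 4.03e-09), and day 7 libraries stayed at 8.15 to 13.5 and 7.75 to 13.2 CPM.

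Gm14005 (chr2:128178319-128502765, minus strand) is the mouse Morrbid. At baseline it read 2.78, 2.85 and 3.05 CPM in S7fl/fl and 2.23, 2.48 and 2.78 in MyS7KO. At day 3 it read 10.4 to 16.6 CPM in S7fl/fl (median 12.1; log2 2.18 ± 0.269, edgeR adjusted p = 3.27e-07) and 12.5 to 16.1 in MyS7KO (median 14.2; log2 2.5 ± 0.276, edgeR adjusted p = 5.57e-08). All 10 day 3 libraries lay above all 6 baseline libraries. At day 7 the S7fl/fl libraries spread over 7.01, 8.97 and 18 CPM. The 4 MyS7KO libraries (5.03, 5.71, 6.95 and 9.77 CPM) lay below every MyS7KO library of day 3 (log2 -1.04 ± 0.226, edgeR adjusted p = 0.000774). The difference between the genotypes in that step was -0.83 (log2) and did not pass (edgeR adjusted p = 0.447).

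Gm13391 (chr2:6472000-6478619, plus strand), a predicted gene, rose at both steps. It read 0.299 to 0.679 CPM at baseline, 2.62 to 5.09 at day 3 and 5.49 to 8.74 at day 7 in S7fl/fl. MyS7KO libraries read 0.310 to 0.942, 1.29 to 5.11 and 6.41 to 9.53 CPM. Within a genotype no time overlapped the next. The second step was 0.97 (log2; edgeR adjusted p = 0.0329) in S7fl/fl and 1.23 (0.00217) in MyS7KO, and the S7fl/fl call ended when any 1 of 5 libraries was left out (day 3 replicate 1, 2 or 4, day 7 replicate 3 or 4; edgeR adjusted p up to 0.156). Over all alternatives that S7fl/fl call ended under 9.

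Other RNAs rose at day 3 in both genotypes too. A930007I19Rik, which lies within the span of Ric1, went from 0.620, 1.36 and 1.37 CPM to 4.2 to 9.46 in S7fl/fl (log2 2.37) and from 0.568, 0.709 and 0.793 to 3.72 to 5.52 in MyS7KO (log2 2.62). AI504432 went from 29.9, 34.6 and 57.0 CPM to 122 to 191 in S7fl/fl (log2 1.85) and from 46.0, 48.6 and 56.0 to 117 to 172 in MyS7KO (log2 1.48). No day 3 library of either RNA reached the baseline range of its genotype. AI839979, Gm31718, 1810058I24Rik, Gm45752, whose exons overlap Dpep2 and Dpep3, and Snhg6, whose exons overlap Mcmdc2, also rose in both genotypes (log2 0.68 to 1.44), as did Gm10076 (1.03 and 1.23), the near-copy of Rpl41. AI427809, Gm36161, 4833407H14Rik and Norad complete the shared list. Of the 16 RNAs higher at day 3 in both, 14 were still above baseline at day 7 in both and 0 were below day 3 in both. The exceptions were 4833407H14Rik and Gm26917. Libraries were left out in turn for 12 of the 14, and of these the S7fl/fl call of A930007I19Rik at day 7 ended without baseline replicate 1 or day 7 replicate 4 (edgeR adjusted p up to 0.0955) and in limma on log2(FPKM + 1), with or without a filter (0.0635 and 0.127).

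Gm26917 was highest in the libraries with the most ribosomal RNA. In S7fl/fl it read 29.2, 62.7 and 135 CPM at baseline and 157 to 730.2 at day 3, with 730.2 in replicate 4 and at most 204 in the other 4. In MyS7KO it read 39.5, 58.7 and 76.8 CPM and then 150.01 to 549, again highest in replicate 4. Those 2 libraries also had the highest Gm23935, an rRNA-like gene (8085 and 7583 CPM, against 152 to 3297 in the other 21), and 0.678 and 0.723% of their counts on rRNA genes, against 0.0208 to 0.288%. The other 4 S7fl/fl libraries of day 3 had 0.0285 to 0.049% of counts on rRNA genes, against 0.0208 to 0.288% at baseline, and 157 to 204 CPM of Gm26917. The other 4 of MyS7KO had 0.0215 to 0.235%, against 0.0309 to 0.185% at baseline, and 150.01 to 332 CPM of Gm26917. The rise was 1.92 and 2.28 on the log2 scale, and 1.22 (edgeR adjusted p = 0.0162) and 1.90 (0.000877) without the 2 libraries, a choice made after seeing the data. Without them 61 of the 93 were called at day 3 in each genotype. The S7fl/fl call of Gm26917 ended when only the groups compared were fitted (edgeR adjusted p = 0.069). The part of ribosomal RNA in the Gm26917 rise was not tested.

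Gm13479 (chr2:45357265-45404035, plus strand), a predicted gene of 2 exons, fell furthest, and it met the count limit only through its baseline groups. At baseline it read 6.22, 8.42 and 10.5 CPM in S7fl/fl and 8.36, 9.65 and 12.5 in MyS7KO. At day 3 every library was below 1 CPM, 0.381 to 0.906 (median 0.457) in S7fl/fl and 0.0596 to 0.561 (median 0.444) in MyS7KO. The S7fl/fl fall was 15-fold (log2 -3.91 ± 0.321, edgeR adjusted p = 7.71e-10), and for MyS7KO the levels are given without a fold because replicate 3 had almost no reads (edgeR adjusted p = 6.17e-11). At day 7 it read 1.17, 1.22 and 1.96 CPM in S7fl/fl and 1.11 to 2.1 in MyS7KO, above every day 3 library and below every baseline library.

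Gm26532 (chr8:84208920-84209609, plus strand) is a single exon that overlaps the hairpin of miR-24-2. In S7fl/fl it read 32.4, 51.0 and 53.6 CPM at baseline and 3.82 to 10.9 at day 3 (median 4.44; log2 -2.95 ± 0.439, edgeR adjusted p = 1.10e-05). MyS7KO libraries read 25.4, 39.0 and 69.4 CPM and then 4.22 to 13.4 (median 7.85; log2 -2.52 ± 0.431, edgeR adjusted p = 5.07e-05). Day 7 libraries stood below every baseline library too, at 9.82 to 20.2 and 8.69 to 21.2 CPM.

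Further falls in both genotypes came from 4632415L05Rik, Gm46430, Gm37233 and Gm47675. 4632415L05Rik, with 1 exon, went from 6.44 to 8.81 CPM to 1.21 to 1.94 in S7fl/fl (log2 -2.17) and from 5.57 to 7.03 to 1.59 to 2.15 in MyS7KO (log2 -1.81). Gm37233, which holds the hairpin of miR-5103, went from 4.19 to 8.92 CPM to 1.54 to 3.37 in S7fl/fl (log2 -1.39) and from 7.33 to 10.4 to 1.44 to 2.43 in MyS7KO (log2 -2.33). None of these day 3 ranges met its baseline range, and the difference between the 2 falls of Gm37233 (log2 -0.94) did not pass (edgeR adjusted p = 0.878). Gm47675 lies 2553 bases from F13a1, the gene of the coagulation factor XIII A chain. In S7fl/fl the mean of Gm47675 went from 6.31 CPM at baseline to 2.26 at day 3 (log2 -1.48) and 1.66 at day 7. There the second step was not called (log2 -0.44, edgeR adjusted p = 0.355). In MyS7KO it fell at both steps, from 4.36 to 6.54 CPM at baseline to 1.62 to 3.52 at day 3 and 0.654 to 2.17 at day 7 (day 7 against day 3 log2 -1.08, edgeR adjusted p = 0.00621), though the day 3 and day 7 ranges overlap. The mean level of F13a1 in the same groups was 1973, 765 and 379 CPM.

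**Figure D3:**
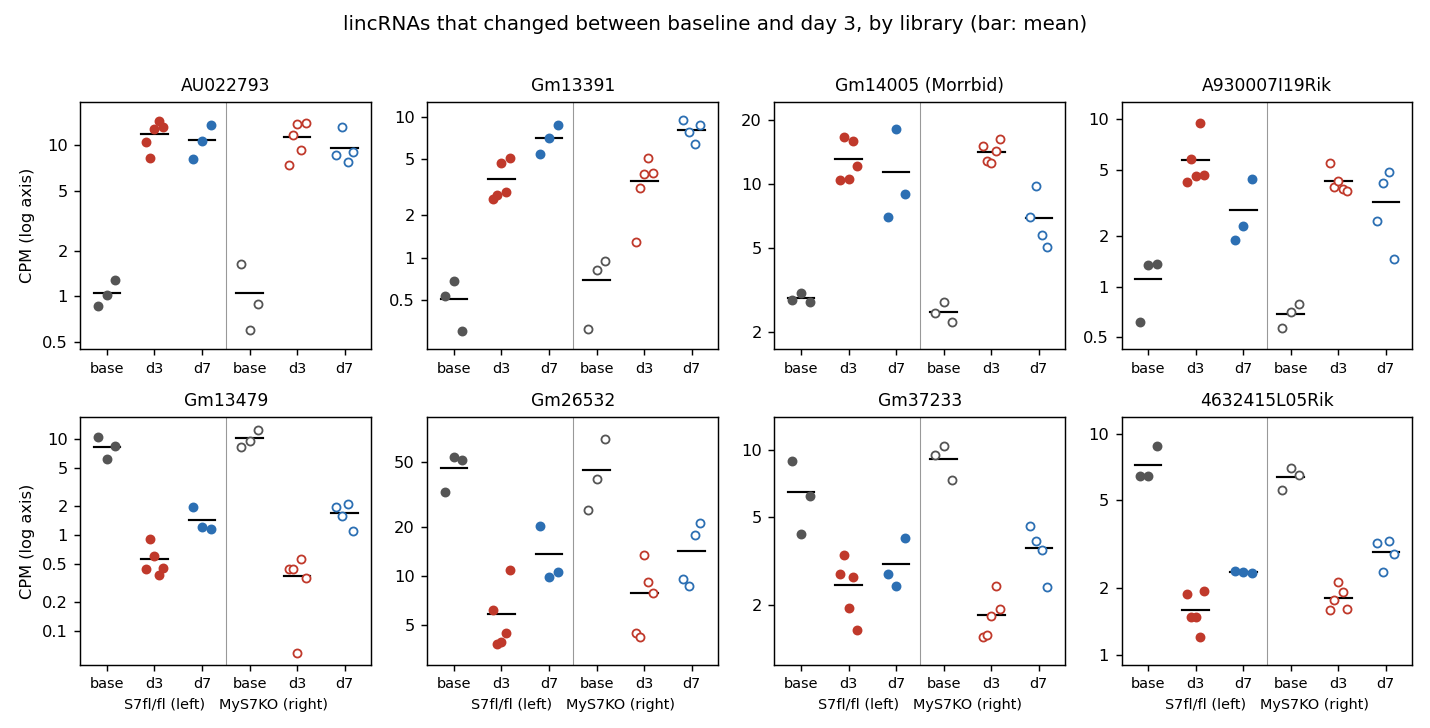
CPM on log axes of 8 lincRNAs in each library at baseline, day 3 and day 7, S7fl/fl as filled points on the left and MyS7KO as open points on the right of each panel, with the mean as a bar. The upper 4 rose and the lower 4 fell at day 3, and in none of the 8 did a day 3 library reach the baseline range of its genotype.

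Of the 36 RNAs lower at day 3 in both genotypes, 17 were still below baseline at day 7 in both, among them Gm13479, Gm26532, Gm37233, Gm46430, Gm47675 and Snhg12. Libraries were left out in turn for 12 of the 17, and the call ended for Gm26532 in MyS7KO without baseline replicate 3 (edgeR adjusted p = 0.0567), for Gm37233 in S7fl/fl without baseline replicate 1 (0.0583) and for 5031425E22Rik in MyS7KO without baseline replicate 1 or 2 or day 7 replicate 5 (up to 0.0563). In 10 the level rose again from day 3 to day 7 in both. Libraries were left out in turn for 7 of the 10, and in S7fl/fl 4 calls then ended, those of Meg3 (given below), 4632415L05Rik without any of 6 libraries, day 3 replicate 2, 3 or 4 or day 7 replicate 2, 3 or 4 (edgeR adjusted p up to 0.118), Gm13479 without day 7 replicate 2 (0.0749), and 5031425E22Rik without day 7 replicate 3 or 4 (up to 0.0848). Over all alternatives the call of 4632415L05Rik ended under 15, that of Gm13479 under 3 and that of 5031425E22Rik under 3. Gm5086 went past its starting level: in S7fl/fl it read 10.8 to 12.7 CPM at baseline, 6.17 to 8.46 at day 3 and 13.4 to 21.5 at day 7, and in MyS7KO 9.39 to 15.8, 6.01 to 9.98 and 15.3 to 19.997. The day 7 level was above baseline in both (log2 0.63 and 0.66, edgeR adjusted p = 0.0144 and 0.00899), with overlapping ranges in MyS7KO. That call ended without S7fl/fl baseline replicate 2, day 7 replicate 2 or day 7 replicate 4 (up to 0.0688) and without MyS7KO baseline replicate 1 or 2 (up to 0.0568), and the MyS7KO fall at day 3 ended without baseline replicate 3 (0.171). Gm26809 went from 33.3 to 44.8 CPM to 16.6 to 26.1 and back to 36.2 to 51.6 in S7fl/fl. In MyS7KO its mean went from 50.2 CPM to 22.6 and then 37.9. There day 7 stayed below baseline without overlap (log2 -0.40, edgeR adjusted p = 0.025), a call that ended under 5 alternatives, 3 of them with 1 library left out. The 45 RNAs not picked by level, by low p, by a list or, as Cyrano, for a site had 22 lower and 5 higher at day 3 in S7fl/fl (log2 -1.78, Gm42047, to 1.09, AI427809), where 34.1% of all genes were lower and 29.9% higher. In MyS7KO 18 were lower and 6 higher (log2 -1.82, C030034L19Rik, to 2.19, Gm26772), beside 35.2 and 30.7% of all genes.

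Markers of several other cell types were lower at day 3 as well. Endothelial markers (10 of 10 in the table) summed to 2102 to 2865 CPM at baseline and 393 to 913 at day 3 in S7fl/fl, and to 1350.5 to 2785 and 554 to 949.5 in MyS7KO. Mural cell markers (5 of 5) went from 1153 to 1664 CPM to 114 to 197 and from 968 to 1554 to 133 to 219. Cardiomyocyte (10 of 10), B cell (7 of 7) and T and NK cell markers (12 of 12) also had day 3 ranges below their baseline ranges in both genotypes, and no marker was at 0 in every library. Neutrophil (12 of 12), fibroblast (10 of 10) and dendritic cell markers (7 of 7) had ranges that overlap baseline in both. Mast cell markers (6 of 6) were higher, going from 9.79 to 12.01 CPM to 14.7 to 20.1 in S7fl/fl and from 7.43 to 11.7 to 16.99 to 23.5 in MyS7KO. Markers of cycling cells (8 of 8) were higher too, from 174 to 198 CPM to 216 to 553 and from 176 to 231 to 427 to 561. Their part in the fall of the 36 RNAs was not tested.

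Against baseline, day 7 was balanced in S7fl/fl. There 48 RNAs were called (51.6%, beside 50.2% of all genes), 24 higher (beside 24.8%) and 24 lower (beside 25.4%), and in MyS7KO 48 (51.6%, beside 44% of all genes), 21 higher (beside 22.2%) and 27 lower (beside 21.8%). Gm16907, Gm48065 and Mir155hg were the 3 that stood above baseline at day 7 in both genotypes with no call at day 3 in either. For Gm48065 the MyS7KO call (log2 0.48, edgeR adjusted p = 0.0435) ended without baseline replicate 1, 2 or 3 or day 7 replicate 1, 3 or 5 (up to 0.106) and with sex as a covariate (0.116). Against day 3, most calls were rises. In S7fl/fl 25 were called (26.9%, beside 21.7% of all genes), 24 higher (25.8%, beside 11.5%) and 1 lower (1.08%, beside 10.1%). In MyS7KO 33 were called (35.5%, beside 39.6% of all genes), 25 higher (26.9%, beside 20.5%) and 8 lower (beside 19.1%). The median log2 change was 0.32 in S7fl/fl and 0.21 in MyS7KO, against 0.01 and 0.08 over all genes, and 16 RNAs rose (beside 9.33% of all genes) and 0 fell (beside 8.6%) in both. The S7fl/fl count was 15 without day 7 replicate 3 and 16 without day 7 replicate 4. Its 1 lower call, A930007I19Rik (log2 -0.99, edgeR adjusted p = 0.0479), ended without day 3 replicate 2 or 4 or day 7 replicate 2 or 3 (up to 0.215).

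Among RNAs retained in the nucleus, Malat1, a component of nuclear speckles, was called only in MyS7KO at day 3, and the difference of that change between the genotypes did not pass (log2 -0.53, edgeR adjusted p = 0.878). Malat1 (chr19:5795690-5802672, minus strand) read 1476 to 1597 CPM at baseline in S7fl/fl, 1276 to 2107 at day 3 and 1410.1 to 1689.6 at day 7, ranges that overlap. In MyS7KO it read 1473, 1512 and 2022 CPM at baseline and 934 to 1378 at day 3 (log2 -0.48 ± 0.164, edgeR adjusted p = 0.0141). That call rested on MyS7KO baseline replicate 2, the library at 2022 CPM (without it log2 -0.29, edgeR adjusted p = 0.182), although the other baseline libraries also lay above every day 3 library.

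Neat1 (chr19:5824708-5845478, minus strand) is known as the scaffold of paraspeckles, and counts per gene of poly(A) RNA do not tell its forms apart. In S7fl/fl it read 331 to 484 CPM at baseline, 403 to 472 at day 3 and 260.3 to 540.4 at day 7, with no call. In MyS7KO it went from 362 to 511 CPM at day 3 to 220.03, 258, 266 and 367 at day 7 (log2 -0.54 ± 0.174, edgeR adjusted p = 0.0166). Only the library at 367 CPM lay within the day 3 range, and the call ended without day 3 replicate 4 (log2 -0.44, edgeR adjusted p = 0.0535) or day 7 replicate 3 (log2 -0.44, edgeR adjusted p = 0.0616). The difference of this Neat1 step between the genotypes did not pass (log2 -0.38, edgeR adjusted p = 0.581). Of 13 genes for protein partners of Neat1 in paraspeckles, 11 fell and 0 rose over the same step in MyS7KO (beside 19.1% of all genes and 26.8% of the coding genes lower), and 4 fell and 0 rose in S7fl/fl (beside 10.1% of all genes lower), where Neat1 was not called. From baseline to day 3, 8 rose and 2 fell in S7fl/fl and 9 rose and 1 fell in MyS7KO (beside 29.9 and 30.7% of all genes higher). Over the 6 group means, in log2 CPM, the RNAs nearest to Malat1 by Euclidean distance were 5430416N02Rik, Gm34084, 2310001H17Rik, A530017D24Rik and Mir142hg (0.24 to 0.43). Those nearest to Neat1 were Gm28875, AI480526, 5430416N02Rik, Mir17hg and Pvt1 (0.45 to 0.55).

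Pvt1, the RNA next to Myc, read 7.81 to 8.2 CPM at baseline, 4.64 to 6.57 at day 3 and 4.78 to 6.59 at day 7 in S7fl/fl. MyS7KO libraries read 7.22 to 9.32, 5.11 to 8.17 and 4.43 to 4.98 CPM. Day 7 lay below baseline without overlap in both (log2 -0.52 and -0.78, edgeR adjusted p = 0.0167 and 0.000529), and the S7fl/fl call ended without day 7 replicate 2 (0.0836). Of the 6 genes of the nuclear-retained list that were tested, which counts Tug1 and other genes outside the set, 3 fell and 0 rose at day 3 in each genotype (Meg3 and Tug1 in both, Pvt1 in S7fl/fl, Malat1 in MyS7KO), beside 34.1 and 35.2% of all genes lower.

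Norad had narrow groups. It read 96.4, 102 and 105 CPM at baseline in S7fl/fl and 142 to 157 at day 3, and 91.9, 92.8 and 102 against 142 to 153 in MyS7KO. The groups did not overlap, and the rise was 1.47-fold (log2 0.55 ± 0.0692, edgeR adjusted p = 3.93e-07) and 1.55-fold (log2 0.64 ± 0.0695, edgeR adjusted p = 4.84e-08). Day 7 libraries stayed above baseline, at 136, 150 and 151 CPM in S7fl/fl and 126 to 131 in MyS7KO. In MyS7KO they lay below every day 3 library (log2 -0.21 ± 0.0626, edgeR adjusted p = 0.0114), a call that ended under 1 alternative. The difference between the genotypes in that step did not pass (log2 -0.18, edgeR adjusted p = 0.491).

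Cyrano moved the other way. It read 80.4, 82.8 and 109 CPM at baseline in S7fl/fl and 51.9 to 70.6 at day 3 (log2 -0.60 ± 0.131, edgeR adjusted p = 0.000344). In MyS7KO it read 92.4, 92.5 and 97 CPM and then 49.1 to 68.8 (log2 -0.63 ± 0.131, edgeR adjusted p = 0.000202). No day 3 library reached its baseline range. At day 7 the libraries read 53.8, 65.9 and 80.6 CPM in S7fl/fl and 64.8 to 87.7 in MyS7KO.

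The imprinted RNAs Meg3 and H19, which are transcribed from the maternal allele, were low at day 3. Meg3 (chr12:109541001-109571726, plus strand) read 7.57, 12.7 and 13.8 CPM at baseline in S7fl/fl and 1.52 to 5.73 at day 3 (median 2.29; log2 -1.95 ± 0.434, edgeR adjusted p = 0.000603). MyS7KO libraries read 6.89, 10.9 and 14.1 CPM and then 3.11 to 4.17 (log2 -1.56 ± 0.43, edgeR adjusted p = 0.00357). Neither genotype's ranges overlapped. At day 7 it read 5.24, 6.35 and 11.3 CPM in S7fl/fl and 4.86, 8.76, 16.4 and 24.7 in MyS7KO. The S7fl/fl ranges of day 3 and day 7 overlap, and the rise from day 3 passed in both (edgeR adjusted p = 0.0306 and 0.000797), but in S7fl/fl it ended when day 3 replicate 2, 3, 4 or 5 or day 7 replicate 2 was left out (up to 0.206). Over all alternatives that S7fl/fl call ended under 11, with a log2 change of 0.28 to 1.39 among them.

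The promoter of Meg3 is printed because it was the 1 promoter of the set with a cAMP response element, TGACGTCA, whose match starts at position -57 and is in capitals. The stretch is chr12:109540746-109541045, plus strand (RefSeq, GRCm38.p6), from 250 bases before to 50 after the RefSeq start. RefSeq promoters were matched for 50 of the 93, and both strands were searched. The element stood in 1 of the 50 and in 1.79% of 32851 mouse promoters of 300 bases. The AP-1 motif TGANTCA stood in 5 of the 50 (7.81% of all), the PU.1 motif GAGGAAGT in 6 (3.20%) and the ETS motif CCGGAAGT in 2 (3.89%), and the RefSeq promoter of Morrbid, 73414 bases from its start in the count table, held 1 each of AP-1 and PU.1. A match describes letters and not binding.
Meg3 promoter: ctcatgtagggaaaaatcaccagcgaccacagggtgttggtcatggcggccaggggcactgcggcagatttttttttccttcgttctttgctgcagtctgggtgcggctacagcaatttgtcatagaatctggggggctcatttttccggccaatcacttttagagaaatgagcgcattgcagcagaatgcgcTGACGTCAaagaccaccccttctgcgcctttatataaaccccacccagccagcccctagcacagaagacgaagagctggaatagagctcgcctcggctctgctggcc

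H19 (chr7:142575529-142578143, minus strand) read 11.8, 13.6 and 14.3 CPM at baseline in S7fl/fl and 3.36 to 9.65 at day 3 (median 3.71; log2 -1.39 ± 0.466, edgeR adjusted p = 0.014), with no overlap. In MyS7KO baseline libraries read 3.57, 6.91 and 12 CPM and day 3 libraries 3.24 to 11.9, which overlap, and the change did not pass (log2 -0.39, edgeR adjusted p = 0.486). MyS7KO day 7 libraries read 5.88, 11.7, 13.7 and 18.7 CPM, and the rise from day 3 (log2 1.13, edgeR adjusted p = 0.0457) ended when any 1 of 7 libraries was left out, all but day 3 replicate 1 and day 7 replicate 3 (up to 0.145). Of 6 imprinted genes tested, 4 fell at day 3 in S7fl/fl and 3 in MyS7KO (beside 34.1 and 35.2% of all genes lower). From day 3 to day 7, 2 rose in S7fl/fl and 5 in MyS7KO (beside 11.5 and 20.5% of all genes higher). Peg13, which is outside the set, went from mean levels of 66.5 and 66.8 CPM to 16.4 and 17. Fibroblast markers, summed, were 800.1 to 1176 CPM at baseline in S7fl/fl and 560.4 to 1152 in MyS7KO, 255 to 1108 and 555 to 1244 at day 3, which overlap baseline, and 1299 to 3434 and 1796 to 5152 at day 7, highest in MyS7KO replicates 1 and 4 (5152 and 4247 CPM), which also had the highest Meg3 and H19. Their part in these changes was not tested.

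**Figure D4:**
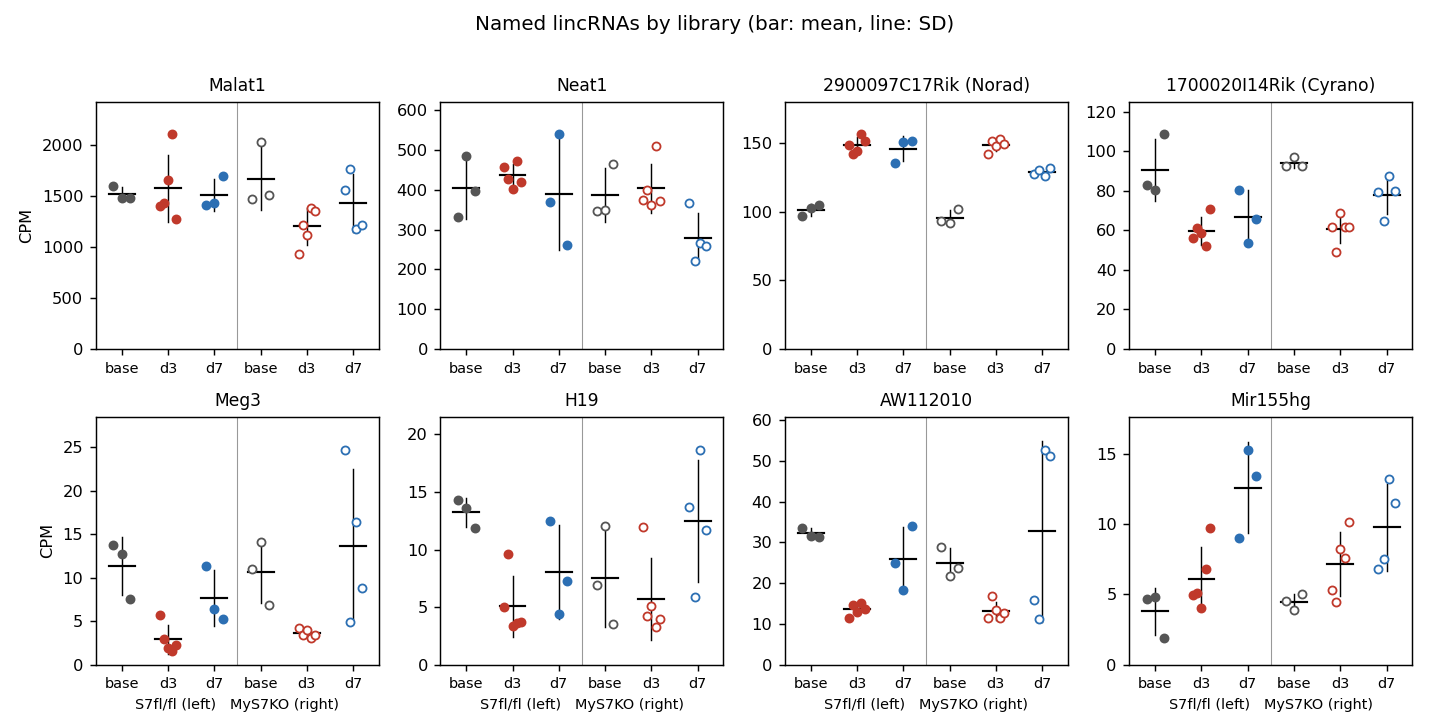
CPM of Malat1, Neat1, 2900097C17Rik (Norad), 1700020I14Rik (Cyrano), Meg3, H19, AW112010 and Mir155hg in each library, S7fl/fl as filled points on the left and MyS7KO as open points on the right of each panel, with the mean as a bar and the SD as a line. Norad groups are narrow and shift up at day 3, while the 4 MyS7KO day 7 libraries of Meg3 spread from 4.86 to 24.7 and those of AW112010 from 11.3 to 52.8.

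Of the RNAs linked to inflammation, AW112010 was low at day 3. It read 31.4, 31.6 and 33.7 CPM at baseline in S7fl/fl and 11.5 to 15.1 at day 3 (log2 -1.25 ± 0.35, edgeR adjusted p = 0.00425). In MyS7KO it read 21.9, 23.8 and 28.9 CPM and then 11.3 to 16.7 (log2 -0.92 ± 0.352, edgeR adjusted p = 0.0274), a call that ended without baseline replicate 1 or day 3 replicate 1 or 4 (up to 0.106). Groups did not overlap in either genotype. The MyS7KO libraries of day 7 split, with 15.9 and 11.3 CPM in replicates 1 and 3 and 52.8 and 51.1 in replicates 4 and 5. Summed neutrophil markers, of cells that a Ly6G-negative sort should remove, were 328 and 202 CPM in replicates 4 and 5 against 166 and 185. Endothelial markers were 1506 and 767 CPM against 744 and 245, and cardiomyocyte markers 72.1 and 34.7 against 33.4 and 15.97, so both split the same way. Dendritic cell markers split the other way (114 and 81.5 CPM against 141 and 126). Mural markers (499 and 250 against 272 and 61.4) overlapped, as did macrophage, fibroblast, B cell, T and NK cell, mast cell and cycling cell markers. Their part was not tested.

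Mir155hg rose later. It read 1.88, 4.67 and 4.81 CPM at baseline in S7fl/fl, 4.03 to 9.71 at day 3 and 9.02, 13.4 and 15.3 at day 7. MyS7KO libraries read 3.87, 4.54 and 5.01, then 4.44 to 10.1, then 6.79, 7.54, 11.5 and 13.2 CPM. Day 7 did not overlap baseline in either (log2 1.74 ± 0.367, edgeR adjusted p = 0.000507, and 1.13 ± 0.346, 0.0115). The MyS7KO call ended without baseline replicate 2 (0.0522) and with sex as a covariate (0.0825). Of 11 inflammation and myeloid genes tested, 3 rose at day 3 in each genotype (beside 29.9 and 30.7% of all genes higher), Morrbid, Ptgs2os and Ptgs2os2, the last 2 from the Ptgs2 locus and outside the set. AW112010 and Mirt1 fell in both, and Dnm3os in S7fl/fl (beside 34.1 and 35.2% lower).

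The other microRNA hosts differed in their changes. Mir142hg, which has 269 bases of exon, read 4.40 to 13.4 CPM over the S7fl/fl libraries and 3.03 to 12.8 over the MyS7KO libraries and was called in none of the 6 time comparisons. Mir17hg read 13.8, 18.6 and 20.1 CPM at baseline in MyS7KO, 11.1 to 13.3 at day 3 and 10.2 to 12.2 at day 7 (log2 -0.50 and -0.67, edgeR adjusted p = 0.00629 and 0.00185). The day 3 call ended without baseline replicate 3 (0.0525), and in S7fl/fl neither change passed (log2 -0.31 and -0.26). 6720427I07Rik, which holds let-7d, fell at day 3 from 4.66 to 6.07 CPM to 1.58 to 2.98 in S7fl/fl and from 5.07 to 7.24 to 2.00 to 2.93 in MyS7KO (log2 -1.30 and -1.23). Of 8 microRNA hosts of the fixed list that were tested, 4 fell and 1 rose at day 3 in each genotype, beside 34.1 and 35.2% of all genes lower and 29.9 and 30.7% higher.

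The hosts of small nucleolar RNAs, which guide the modification of ribosomal RNA, went in both directions. Of 16 tested, 2 rose and 6 fell at day 3 in S7fl/fl (beside 29.9% of all genes higher and 34.1% lower), and 5 rose and 4 fell in MyS7KO (beside 30.7 and 35.2%). Snhg12 went from 16.8, 19.2 and 20.6 CPM to 6.37 to 9.37 in S7fl/fl (log2 -1.34) and from 14.6, 16.6 and 19.2 to 7.06 to 12.8 in MyS7KO (log2 -0.90). Snhg6 rose in both, from 6.68 to 8.55 CPM to 10.9 to 13.2 and from 6.09 to 8.87 to 10.3 to 15. Epb41l4aos fell at day 3 in S7fl/fl with overlapping ranges (log2 -0.85, edgeR adjusted p = 0.00381), a call that rested on baseline replicate 2 at 11.9 CPM (without it log2 -0.36, edgeR adjusted p = 0.164).

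Of the remaining listed RNAs, Lncpint, a p53-induced RNA, rose at day 3 in S7fl/fl from 5.39, 5.41 and 7.01 CPM to 7.03 to 15.2 (log2 0.94 ± 0.283, edgeR adjusted p = 0.0059). In MyS7KO it read 5.25 to 9.05 CPM and then 6.81 to 10.5, which did not pass (log2 0.23). Bvht (Braveheart), known from cardiac lineage commitment, was the 1 gene of the heart and vessel list that could be tested. It went from 4.17, 4.53 and 5.15 CPM to 1.23 to 3.03 in S7fl/fl (log2 -1.13) and from 3.12, 4.59 and 4.74 to 1.43 to 3.06 in MyS7KO (log2 -0.92), without overlap. The MyS7KO call ended without baseline replicate 1 or 2 (edgeR adjusted p = 0.0561 and 0.0626). Summed cardiomyocyte markers read 82.6 to 113 and 69.4 to 95.7 CPM at baseline and 11.8 to 26.9 and 15 to 32.4 at day 3, and their part was not tested. In all, 81 of the 93 were called in at least 1 of the 6 time comparisons. Single comparisons called 21.7 to 65.9% of all genes. The share of all genes called in at least 1 is not given here, so the 81 describe the set alone.

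Neighbouring coding genes were compared because some lincRNAs act on them. Of 64 lincRNAs whose nearest coding gene was tested and does not overlap them, 35 changed with the same sign as that gene at day 3 in S7fl/fl (54.7%) and 34 in MyS7KO (53.1%), against 56.2 and 55.6% of 8171 coding genes and their nearest coding neighbours. Where both partners were called, 16 of 31 pairs in S7fl/fl (51.6%) and 18 of 29 in MyS7KO (62.1%) had the same direction, against 61 and 60.4% of coding pairs. Lrp12, 18655 bases from AU022793, rose with it, from means of 22.1 and 23.1 CPM to 138 and 125 (log2 2.64 and 2.44). Bcl2l11, 15772 bases from Morrbid and the gene that Morrbid is known to hold down, also rose, from 99.9 and 105 CPM to 249 and 242 (log2 1.32 and 1.21). Zeb2 lies 239870 bases from Gm13479 and went from 277 and 321 CPM to 481 and 420 (log2 0.80, edgeR adjusted p = 0.00276, and 0.39, which did not pass at 0.115).

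**Figure D5:**
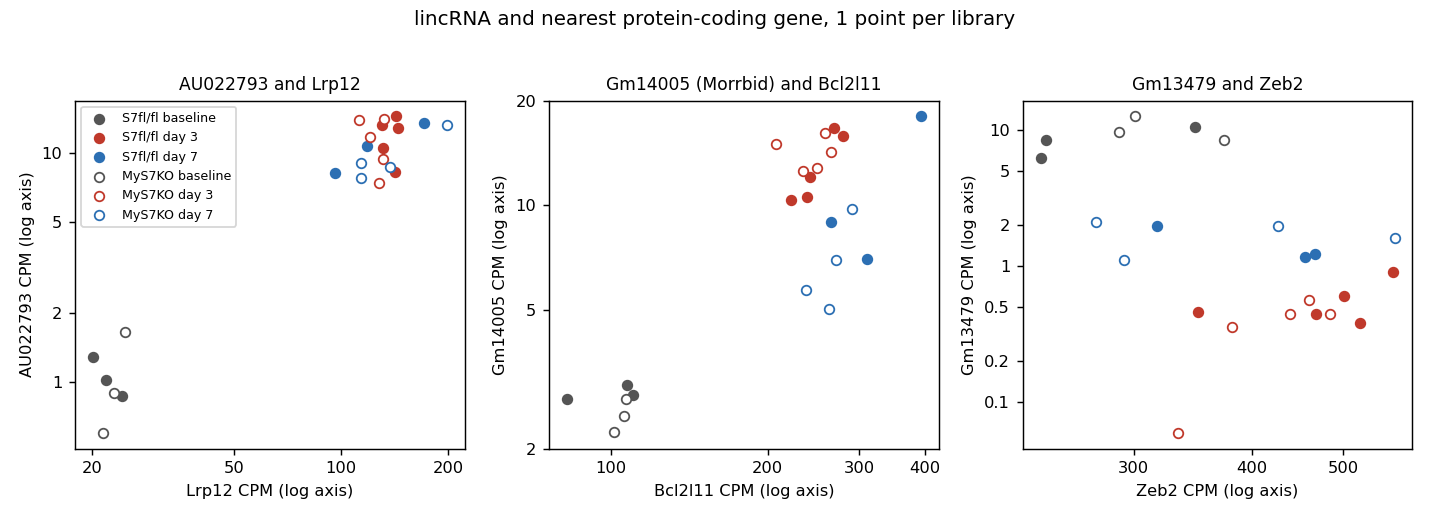
CPM of AU022793, Gm14005 (Morrbid) and Gm13479 (y axes) against their nearest coding genes Lrp12, Bcl2l11 and Zeb2 (x axes) on log axes, 1 point per library, coloured by time, filled for S7fl/fl and open for MyS7KO. Day 3 and day 7 libraries lie to the upper right of baseline for AU022793 and for Morrbid, and lower for Gm13479.

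Between the genotypes, none of the 93 passed at any time. At baseline, day 3 and day 7 edgeR called 0 (2, 2 and 3 of all 16545 genes, 0.0121, 0.0121 and 0.0181%). At an unadjusted p under 0.05 were 2, 5 and 8 of the 93 (2.15, 5.38 and 8.6%), beside 2.27, 3.59 and 13.1% of all genes. DESeq2 called 0, 0 and 1. The median log2 difference of MyS7KO from S7fl/fl was -0.04, -0.02 and -0.10. Lowest in p at baseline were Gm48065 (log2 0.47), Gm26809 (0.32) and Gm15728 (-0.72), and at day 3 Gm38399 (-0.61), Malat1 (-0.39) and Gm19951 (-0.85), with edgeR adjusted p of 0.999 and 0.982.

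At day 7 the lowest p belonged to Gm19951 (chr12:99643093-99647221, plus strand), a predicted gene. It read 5.27, 6.52 and 8.48 CPM in S7fl/fl and 0.639, 1.23, 3.03 and 3.07 in MyS7KO. The groups did not overlap, and the difference (log2 -1.74 ± 0.384) missed edgeR's threshold (adjusted p = 0.159) and passed in DESeq2 (adjusted p = 0.00691). Snhg20 read 5.11, 6.29 and 7.93 CPM against 2.33 to 4.26 (log2 -0.96, edgeR adjusted p = 0.218), and Gm31718 11.6 to 19 against 8.52 to 11.1 (log2 -0.59, edgeR adjusted p = 0.294). Without MyS7KO day 7 replicate 3 another RNA, Gm7160, was called (log2 -1.38, edgeR adjusted p = 0.0445). Sex and genotype cannot be told apart in these day 7 values. Summed macrophage markers also differed between the genotypes at day 7, and their part was not tested.

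No difference of the genotype effect between times passed for any of the 93 by edgeR, where 0 of all genes passed (0%) in each of the 3 comparisons of times. In these, 5, 5 and 7 of the 93 had an unadjusted p under 0.05 (5.38, 5.38 and 7.53%), beside 4.48, 5.21 and 10.4% of all genes. DESeq2 also called 0. For day 3 minus baseline the lowest p belonged to Gdap10 (log2 -0.87), Gm37233 (-0.94) and Gm38399 (-0.83), with an edgeR adjusted p of 0.878. For day 7 minus baseline they were Gm19951 (-1.60), Gm26809 (-0.51) and Gm31718 (-0.70), at 0.877. For day 7 minus day 3 they were Snhg20 (-1.37, edgeR adjusted p = 0.416), Gm38399 (0.90, 0.445) and Morrbid (-0.83, 0.447).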

How the data were processed

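Each of the 23 libraries is poly(A) RNA of sorted cardiac macrophages. Counts per gene, with biotype and coordinates, were deposited by the authors as whole numbers, and FPKM values were deposited by the authors beside them. TopHat2 2.0.9, HTSeq 0.6.1, Cufflinks 2.1.1 and the builds mm10 and GRCm38.p6 are named per the submitters' processing notes, without their roles. Samples were grouped by genotype and time from the labels. Counts were scaled by TMM, and 16545 genes passed edgeR's low-count filter. Differences were tested in 1 model over all 6 groups with edgeR's quasi-likelihood test (edgeR 4.0.16, R 4.3.3), with p-values adjusted by Benjamini-Hochberg over all genes tested and a threshold of 0.05. On simulated counts of the S7fl/fl day 3 against baseline comparison, the test recovered 40.3, 80.6 and 97% of genes changed 1.5, 2 and 4-fold, with 2.68% of calls false (15992 genes). Only 67, 67 and 66 genes were changed there, all with a mean count of at least 50, and every library had the same expected levels otherwise. The real comparison called 64% of genes, so these rates may not hold for it. FPKM served only for levels between genes and for limma 3.58.1 alternatives. DESeq2 1.42.0 was an alternative. Exons and sequences came from GENCODE vM21 and RefSeq, and copies were searched with BLAST 2.17.0. Library totals of 15479402 to 23884938 counts set the counting error, which weighs most on the RNAs with the fewest counts.

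The members and the gene lists were chosen with earlier results of these data known. The RNAs named were the 10 highest in FPKM, in each time comparison the 6 with the lowest p called higher and the 6 called lower, any called by genotype with the 3 lowest in p, members of the lists, and those at the count limit. Cyrano with its sites, Gm7160, Gm16907, Gm26772, Gm42047, AI427809, 6720427I07Rik, 4833407H14Rik and the neighbouring genes were named after their values were seen.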

Additional observations from a re-analysis of the deposited data

Results flagged for a closer look

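Single libraries that stood apart within a group of 4 to 10 were looked for in the named RNAs by Dixon's test. Chance flags about 1 in 20 such groups, and 6 of 144 (4.17%) were flagged. Neat1 was highest in MyS7KO day 3 replicate 4 (511 CPM, others 362 to 400.2). H19 was highest in S7fl/fl day 3 replicate 2 (9.65 CPM, others 3.36 to 4.99) and in MyS7KO day 3 replicate 1 (11.9 CPM, others 3.24 to 5.13). 5031425E22Rik was highest in MyS7KO day 3 replicate 3 (17.2 CPM, others 12.4 to 13.6). Gm5547 was lowest in S7fl/fl day 3 replicate 3 (2.82 CPM, others 3.56 to 3.80). Gm26917 was highest in S7fl/fl day 3 replicate 4 (730.2 CPM, others 157 to 204).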

How the results depend on the processing

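Leaving out 1 library at a time gave 54 to 62 calls at day 3 in S7fl/fl and 57 to 63 in MyS7KO, 36 to 46 and 39 to 48 at day 7 against baseline, 15 to 22 and 29 to 33 at day 7 against day 3, and 0 to 1 between genotypes at day 7. Over the other alternatives the counts were 58 to 64, 59 to 66, 42 to 49, 40 to 51, 12 to 29, 24 to 36 and 0 to 1. The lowest, 12 calls at day 7 against day 3 in S7fl/fl, came from limma on log2(FPKM + 1) without a filter, and the 1 genotype call at day 7 from DESeq2. The causes were not tested. Under every alternative, 49 of 63 and 51 of 63 calls of day 3 were kept, 29 of 48 and 33 of 48 of day 7 against baseline, and 7 of 25 and 19 of 33 of day 7 against day 3. Of 183 time calls of named RNAs, 45 ended under at least 1 alternative, 39 of them with 1 library left out, and 0 reversed. Where only left-out libraries are named above for a call, other alternatives also ended some of these calls. Leaving out the 2 libraries with reads of both sexes, or the 2 with the highest Gm26917, was chosen after seeing the data and gave 62 and 61 calls at day 3 in S7fl/fl and 63 and 61 in MyS7KO. With the replicate number as a block the counts were 61 and 62 at day 3, 46 and 46 at day 7 against baseline, 24 and 35 at day 7 against day 3, and 0 between genotypes; residuals of same-numbered samples correlated from -0.298 to 0.45, and the numbers were not taken as pairs. The block ended 4 calls of named RNAs (edgeR adjusted p in brackets): Mir155hg (0.0549) and Gm48065 (0.0877) at day 7 against baseline in MyS7KO, Gm5086 (0.0581) at day 7 against baseline and 4632415L05Rik (0.0907) at day 7 against day 3 in S7fl/fl.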
